A study of Mus musculus with 9 samples.

Results

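The genes described here are 10 that hold BMP signalling in check or report on it in mouse: the secreted antagonists Nog, Chrd and Grem1, the pseudoreceptor gene Bambi, the 4 Id genes Id1, Id2, Id3 and Id4, and the inhibitory Smads Smad6 and Smad7. They were taken by symbol, with earlier results of these data known, and each symbol matched 1 row of the 54532 genes in the deposited table. All 10 passed the filter on low counts in every comparison.

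RNA-seq was performed on lambdoidal junction tissue, the place where the maxillary prominences and both pairs of nasal prominences of the embryonic face meet and fuse into the upper lip and primary palate. The tissue came from untreated C57BL/6J mouse embryos of 3 stages, embryonic day 10.5 (E10.5), around the onset of fusion, E11.5, while it proceeds, and E12.5, by which it has ended. Each stage had 3 libraries, and each library was made from tissue pooled over several embryos, so the spread between libraries is that between pools. The study asked how expression changed over fusion by comparing each pair of stages. E11.5 vs. E10.5 is called the first interval here, E12.5 vs. E11.5 the second interval and E12.5 vs. E10.5 the whole course.

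Bone morphogenetic proteins (BMPs) are secreted ligands that bind paired serine/threonine kinase receptors, which phosphorylate Smad1, Smad5 and Smad9, and these enter the nucleus with Smad4. Noggin, chordin and gremlin bind the ligands outside the cell and keep them from the receptors, whereas Id genes and the inhibitory Smads are direct transcriptional targets of the pathway in many cell types. In the developing face, BMP signalling is known for its part in outgrowth and fusion of the prominences and in the later formation of cartilage and bone.

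The libraries held between 16581009 and 20836804 gene counts. E10.5 replicate 3 stood apart from the other 2 libraries of its stage: chi-square per degree of freedom over genes was 57 against replicate 1 and 61.6 against replicate 2, compared with 6.24 between replicates 1 and 2. On the same measure the E11.5 libraries differed from each other by 4.19 to 10.6 and the E12.5 libraries by 25.2 to 54.3. The deviation of E10.5 replicate 3 from the mean of the other 2 followed GC content, with a Spearman correlation of -0.55 across genes. The deviations of replicates 1 and 2 gave 0.44 and 0.47, each taken from a mean that included replicate 3 and so not a separate comparison. Among the 10 genes, the log2 ratio of replicate 3 to the mean of replicates 1 and 2 was -1.16 for Smad7, -0.99 for Chrd, -0.97 for Smad6, -0.72 for Id3 and -0.45 for Id1, genes with a transcript GC content of 53.7 to 60.8%. The same ratio was 0.78 for Id4, 0.21 for Bambi, 0.15 for Id2 and 0.09 for Grem1, whose GC content was 42.6 to 45.1%, and 0.06 for Nog, at 56.2%. Over the 10 genes Pearson's r was -0.83 and Spearman's rho -0.81 between GC content and this ratio, given as a description across genes of 1 library. Values without this library therefore stand beside the results of the 10 genes that it moved by more than 1.5 times or across a threshold. Markers of facial mesenchyme were detected in every library, with 6 of 6 over 3 counts and a summed level of 844 to 1730 CPM (counts scaled to library size) at E10.5, 2540 to 2750 by E11.5 and 2800 to 3130 by E12.5, the lowest in E10.5 replicate 3. Markers of surface epithelium, also 6 of 6, summed to 372 to 675, 367 to 388 and 504 to 534 CPM, the highest in the same library. In whole tissue, fewer cells of a type and less RNA per cell cannot be told apart.

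**Figure D1:**
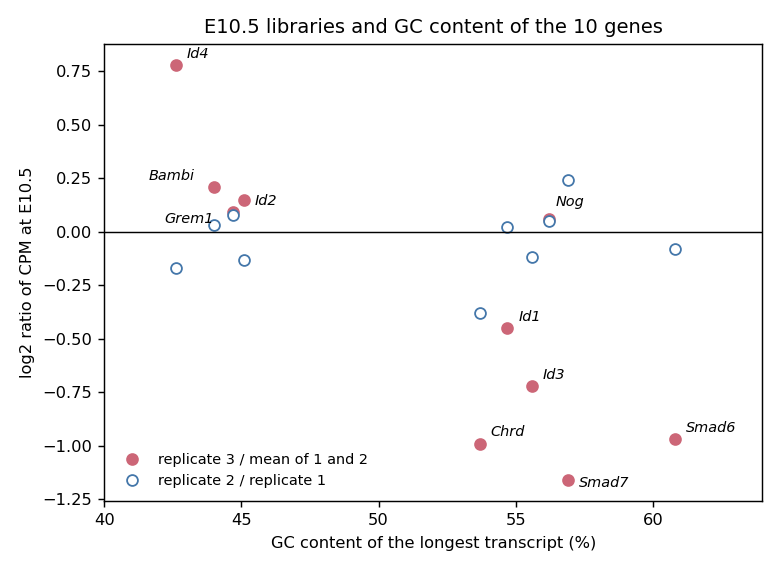
The x axis is the GC content of each gene's longest transcript in percent and the y axis the log2 ratio of CPM between E10.5 libraries, with filled points for replicate 3 over the mean of replicates 1 and 2 and open points for replicate 2 over replicate 1. Filled points run from 0.78 for Id4 at 42.6% GC to -1.16 for Smad7 at 56.9% GC, whereas open points lie between -0.38 and 0.24.

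Levels were compared between genes as CPM per kb of exon length. Id3, Id1 and Id2 held the first 3 places at every stage, and Chrd the last. At E10.5 the mean level was 144 ± 38.3 CPM per kb (SD, n = 3) for Id3, 84.9 ± 14.3 for Id1 and 81.1 ± 6.06 for Id2, and the libraries of Id1 and Id2 overlapped. A group between 9.19 and 15.4 CPM per kb followed, made of Id4, Smad6, Bambi and Smad7 in that order, each overlapping the next. Nog at 3.55 ± 0.11, Grem1 at 1.25 ± 0.0557 and Chrd at 0.427 ± 0.162 CPM per kb (SD, n = 3) were lowest and did not overlap each other. By E11.5 Id4 had dropped below the inhibitory Smads and Bambi to 7.76 ± 0.374, and the libraries of Nog, at 3.50 ± 0.513, and Grem1, at 3.08 ± 0.742, overlapped. At E12.5 Nog, at 10.6 ± 1.16 CPM per kb (SD, n = 3), stood just under Id4, at 13.1 ± 1.33, without overlap, and above Grem1, at 4.85 ± 0.625, and Chrd, at 1.04 ± 0.367. The Id genes, Bambi and the inhibitory Smads lay above its secreted antagonists on the scale of CPM per kb at every stage.

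**Figure D2:**
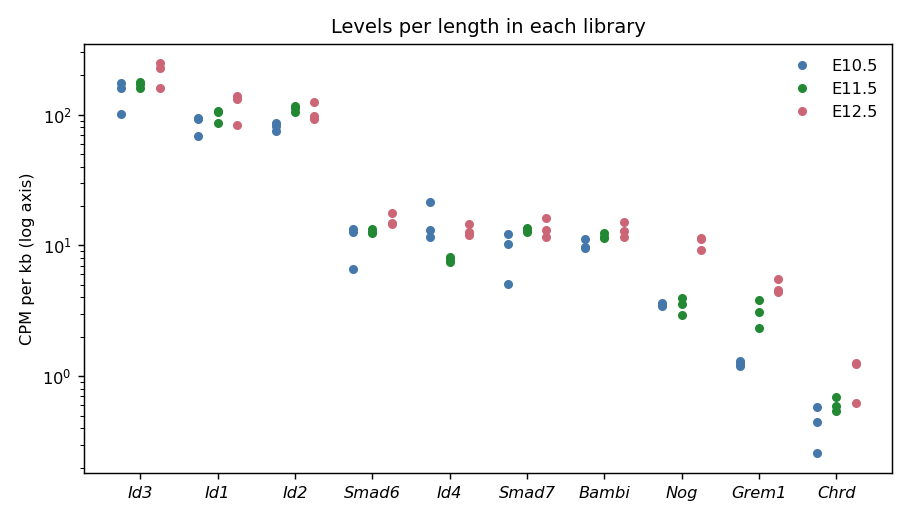
The y axis is CPM per kb on a log scale, the x axis holds the 10 genes, and each point is 1 library, coloured by stage. Id3, Id1 and Id2 lie above every other gene at each stage, and Chrd lies lowest.

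Differential expression was called where the Benjamini-Hochberg adjusted p reached 0.05 and the log2 fold change was 1 or more in size, in edgeR's quasi-likelihood test, run over all genes of the table. Of the 10 genes, 1 was a DEG in the first interval, Grem1, where 6.0% of all genes tested were called and 3.41% were called upregulated. In the second interval it was 1, Nog, against 5.11% of all genes called and 4.14% upregulated. Over the whole course 3 were called, Nog, Chrd and Grem1, against 15.0% called and 9.94% upregulated. All of these calls were upregulations. With the adjusted p alone, the numbers were 3 in each comparison, against 11.5%, 12.1% and 24.3% of all genes, and over the whole course they were the same antagonists. The 3 were Grem1, Id2 and Id4 in the first interval, with Id4 downregulated, and Nog, Grem1 and Id4 in the second. Among these 10 genes, picked with earlier results known, the secreted antagonists accounted for every DEG. Over the whole course 3 of 3 antagonists and 0 of the other 7 genes were called. The call of Chrd was lost without E12.5 replicate 1 (adjusted p = 0.119) or replicate 2 (0.094). Of 14 tested secreted modulators outside the 10, 7 were upregulated and 2 downregulated over the whole course. In the first interval Id4 was just under the fold threshold, at a log2 fold change of -0.98 (adjusted p = 0.028). It was called there without E10.5 replicate 1 or 2. The median log2 fold change of the 10 genes was 0.23, 0.31 and 0.55 in these comparisons, against -0.032, 0.019 and -0.0063 over all genes tested.

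**Figure D3:**
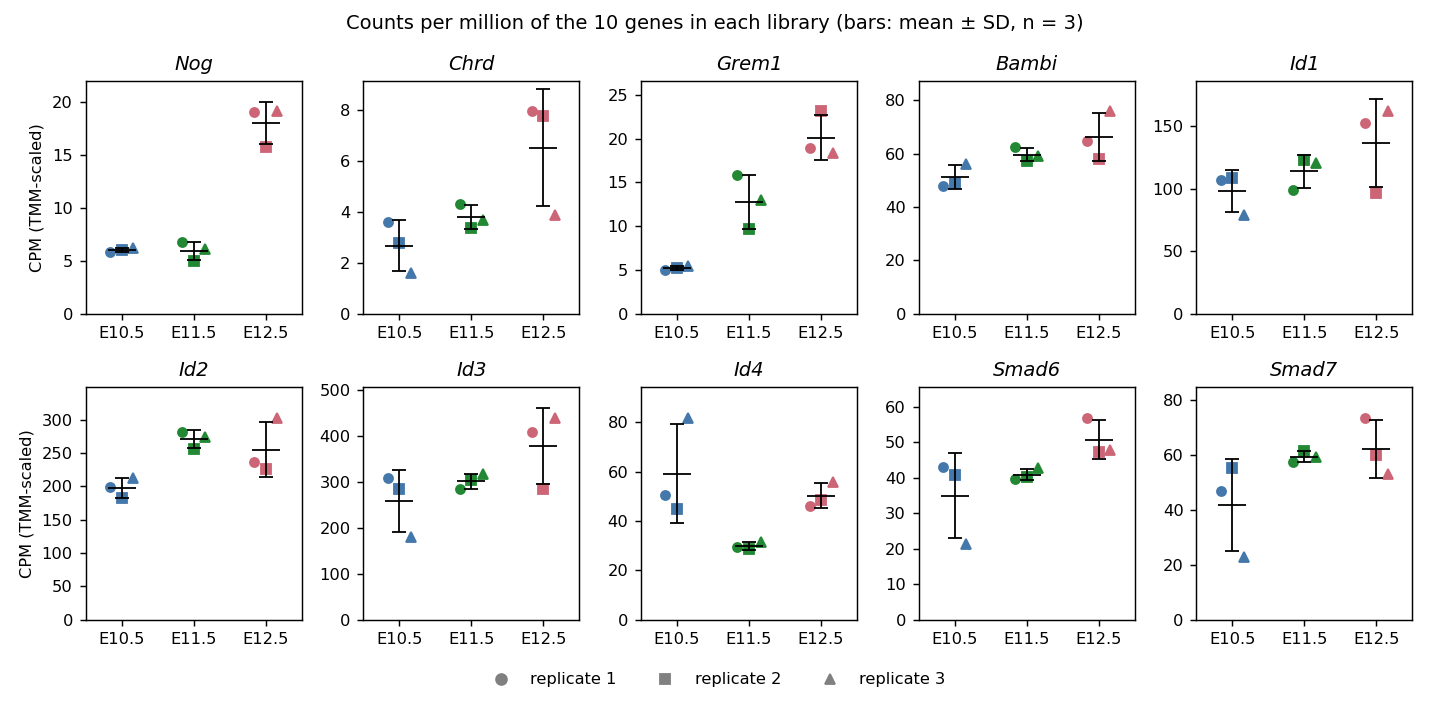
Each panel shows 1 gene, with CPM on the y axis and stage on the x axis. Points are libraries, with the replicate number as the shape, and bars give the mean ± SD of 3 libraries. Nog is higher at E12.5 than at both earlier stages, Grem1 is higher at each later stage, Id4 is lowest at E11.5, and E10.5 replicate 3 is the lowest E10.5 library for Chrd, Id1, Id3, Smad6 and Smad7 and the highest for Id4.

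Nog encodes noggin, a homodimer that masks the receptor-binding faces of BMPs, from a single exon at chr11:89300638-89302332 on the minus strand (GRCm38; ENSMUSG00000048616). It was measured at 5.82, 6.04 and 6.19 CPM in E10.5 replicates 1 to 3, at 6.73, 5.0 and 6.06 CPM in the E11.5 libraries, and at 19.0, 15.7 and 19.1 CPM in those of E12.5. The E10.5 and E11.5 libraries overlapped, and all E12.5 libraries were above both. In the first interval the log2 fold change was -0.02 ± 0.19 (SE; adjusted p = 0.96), and 0.0016 (adjusted p = 0.995) without E10.5 replicate 3. In the second interval Nog rose 3.02-fold, with a log2 fold change of 1.59 ± 0.17 (SE; adjusted p = 0.000292), and over the whole course by 1.58 ± 0.21 (SE; adjusted p = 0.000347). The rise was of like size without any single library, at log2 fold changes of 1.47 to 1.68 for the second interval. The deviating E10.5 library, at 6.19 CPM, lay beside the other 2 for this gene. Summed markers of neurons, with 6 of 6 over 3 counts in every library, were at 163 to 193 CPM in the E10.5 libraries. They were at 188 to 212 CPM in those of E11.5 and 282 to 317 CPM in those of E12.5. This sum too was higher at E12.5 without overlap, as was that of the bone markers given with Grem1. In the second interval 1 of 6 neuron markers and 3 of 4 tested bone markers passed the adjusted p, all of them higher, against 12.1% of all genes. So did 3 of 5 tested cartilage markers, also higher. The cartilage sum overlapped, at 477 to 608 CPM in the E11.5 libraries and 523 to 693 CPM in those of E12.5. The part of these cell types in the Nog result was not tested.

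Grem1 encodes gremlin 1, a cystine-knot antagonist of BMP2, BMP4 and BMP7, and lies at chr2:113746164-113758646 on the minus strand (ENSMUSG00000074934). Its level was 4.93, 5.22 and 5.39 CPM at E10.5, 15.8, 9.62 and 13.0 CPM at E11.5, and 18.9, 23.1 and 18.3 CPM at E12.5. The 3 stages did not overlap, and E11.5 was the most spread of them for its mean. Grem1 rose 2.47-fold in the first interval, a log2 fold change of 1.30 ± 0.21 (SE; adjusted p = 0.00906), and 3.90-fold over the whole course (log2 fold change 1.96 ± 0.21, adjusted p = 8.88e-05). In the second interval the log2 fold change was 0.65 ± 0.19 (SE), under the fold threshold and close to the p threshold (adjusted p = 0.0477). It missed the p threshold without E11.5 replicate 2 (0.46, adjusted p = 0.198), E11.5 replicate 3 (0.141), E12.5 replicate 1 (0.126) or E12.5 replicate 2 (0.0551), and under 3 other settings (0.0504 to 0.0653). The call in the first interval was lost without E11.5 replicate 1 (adjusted p = 0.0517) or replicate 3 (0.0521), while the log2 fold change stayed at 1.13 and 1.30. The summed level of bone markers moved in the same direction over these libraries. It was 27.0 to 30.0 CPM in the E10.5 libraries, 65.3 to 105 CPM in those of E11.5 and 157 to 185 CPM in those of E12.5. Of the 6 markers, 4 were over 3 counts in every library and none was at 0 throughout. Single markers differed in direction. Of 5 tested in the first interval, 2 were upregulated and 1 was downregulated, against 6.0% of all genes called. Over the whole course 3 of 5 were upregulated and 1 was downregulated, against 15.0% of all genes called. Their part in the Grem1 result was not tested.

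Chrd encodes chordin, which holds BMPs in a complex that tolloid proteases cleave, at chr16:20733127-20742384 on the plus strand (ENSMUSG00000006958). Thpo on the opposite strand shares 3.8% of its exon sequence, and reads from this stretch cannot be told apart without a stated strand setting. Chrd was measured at 3.62, 2.79 and 1.61 CPM at E10.5, 4.30, 3.37 and 3.69 CPM at E11.5, and 7.95, 7.76 and 3.88 CPM at E12.5, from 26 to 144 counts per library. E12.5 replicate 3 lay among the E11.5 libraries, while every E12.5 library was above every E10.5 library. The log2 fold change was 0.50 ± 0.31 (SE; adjusted p = 0.334) in the first interval and 0.78 ± 0.27 (SE; adjusted p = 0.0859) in the second. The first of these was 0.24 (adjusted p = 0.447) without E10.5 replicate 3 and 0.78 (adjusted p = 0.183) without E10.5 replicate 1. Over the whole course Chrd rose 2.45-fold, a log2 fold change of 1.29 ± 0.37 (SE; adjusted p = 0.0279). That call was lost without E12.5 replicate 1 (adjusted p = 0.119) or replicate 2 (0.094), and held without E10.5 replicate 3. The step from E11.5 to E12.5 passed without E12.5 replicate 3, at 1.04 (adjusted p = 0.00911).

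The 250 bases upstream of the transcription start are shown for Chrd, Grem1 and Id4, because these and Nog were the genes that differed among the 3 stages, and the RefSeq promoter table (GRCm38.p6) held 6 of the 10 genes, without Nog, Bambi, Id1 and Smad7. Each is written 5′ to 3′ on the gene's own strand, and capitals mark GGCGCC, a GC-rich element known to be bound by Smad1 and Smad5.
Chrd, chr16:20732877-20733126, plus strand: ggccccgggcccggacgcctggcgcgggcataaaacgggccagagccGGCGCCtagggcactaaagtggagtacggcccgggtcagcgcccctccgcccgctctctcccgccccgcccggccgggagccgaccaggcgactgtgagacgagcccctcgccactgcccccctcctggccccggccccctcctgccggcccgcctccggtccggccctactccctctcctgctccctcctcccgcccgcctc
Grem1, chr2:113758649-113758898, minus strand: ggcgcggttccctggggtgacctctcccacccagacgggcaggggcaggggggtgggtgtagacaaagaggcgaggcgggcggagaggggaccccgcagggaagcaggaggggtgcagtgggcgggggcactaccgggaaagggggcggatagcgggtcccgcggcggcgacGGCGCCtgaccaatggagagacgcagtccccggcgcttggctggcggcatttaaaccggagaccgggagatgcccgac
Id4, chr13:48260866-48261115, plus strand: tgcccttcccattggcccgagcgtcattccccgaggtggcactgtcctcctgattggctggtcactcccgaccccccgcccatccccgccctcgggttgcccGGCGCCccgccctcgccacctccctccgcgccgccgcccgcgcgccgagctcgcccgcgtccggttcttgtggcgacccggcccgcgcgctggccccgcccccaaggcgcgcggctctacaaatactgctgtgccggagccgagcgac
GGCGCC, which reads the same on both strands, occurred 1 time in each of the 3 windows and also 1 time in that of Id2, which did not pass the test among stages, and 0 times in those of Id3 and Smad6. It was present in 9.59% of the 32841 promoter windows of this length. The 3 windows had a GC content of 78.0%, 72.0% and 75.6%, against a median of 52.4% over all windows. CANNTG, the E-box bound by the transcription factors that Id proteins hold back, was in none of the 3 and in 66.2% of all windows. GTCT, the core of the Smad-binding element, searched on both strands, occurred 4 times for Grem1, 1 time for Chrd and 0 times for Id4, and in 82.9% of all windows. Such matches describe letters, not bound sites. The windows end at the RefSeq start, which is not always the start of the deposited gene. Counted from the latter, with negative values upstream, it lay at 0 bases for Chrd and Smad6, -2 for Grem1 and -112 for Id4. For Id2 and Id3 it lay 1048 and 325 bases inside the deposited gene.

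Bambi encodes a transmembrane protein that resembles a type I BMP receptor without its kinase domain and is itself induced by BMP in many tissues (chr18:3507957-3516404, plus strand; ENSMUSG00000024232). It was measured at 48.0, 49.1 and 56.2 CPM at E10.5, 62.3, 57.3 and 59.2 CPM at E11.5, and 64.7, 58.1 and 75.8 CPM at E12.5. All E11.5 and E12.5 libraries lay above the E10.5 libraries, while E11.5 and E12.5 overlapped. The log2 fold changes were 0.23 ± 0.11, 0.15 ± 0.13 and 0.38 ± 0.18 (SE) for the first interval, the second interval and the whole course, with adjusted p of 0.226, 0.48 and 0.143. Without E10.5 replicate 3, Bambi passed the adjusted p in the first interval at a log2 fold change of 0.30 (adjusted p = 0.00626), still under the fold threshold, and with the GC trend removed it passed over the whole course, at 0.44 (adjusted p = 0.0445).

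Id proteins are helix-loop-helix factors without a DNA-binding region, which pair with E proteins and keep them from DNA, and Id1 to Id3 in particular are used as readouts of BMP activity. Id1 (chr2:152736251-152737410, plus strand; ENSMUSG00000042745) was measured at 107, 109 and 79.3 CPM at E10.5, 99.3, 123 and 121 CPM at E11.5 and 153, 96.9 and 162 CPM at E12.5. Id3 (chr4:136143497-136145755, plus strand; ENSMUSG00000007872) was measured at 310.0, 285 and 181 CPM at E10.5, 285, 305 and 317 CPM at E11.5 and 410.0, 286 and 441 CPM at E12.5. For both genes every pair of stages overlapped, with E10.5 replicate 3 low and E12.5 replicate 2 low within their stages. Over the whole course the log2 fold change was 0.49 ± 0.23 (SE; adjusted p = 0.141) for Id1 and 0.56 ± 0.24 (SE; adjusted p = 0.119) for Id3. Without E10.5 replicate 3 both were 0.36 (adjusted p = 0.236 and 0.204). Id1 passed over the whole course without E12.5 replicate 2, at 0.69 (adjusted p = 0.0402), and Id3 with the GC trend of each library removed, at 0.54 (adjusted p = 0.0478), or 0.42 (adjusted p = 0.124) when E10.5 replicate 3 was also left out. Without E12.5 replicate 2, both passed the adjusted p in the second interval, Id1 at 0.45 (adjusted p = 0.0154) and Id3 at 0.48 (adjusted p = 0.00722), compared with 0.26 (0.376) and 0.32 (0.214) with it. Without E10.5 replicate 3 the log2 fold change in the first interval was 0.03 for Id3 and 0.089 for Id1, compared with 0.23 and 0.22 with it.

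Id2 (chr12:25093799-25097140, minus strand; ENSMUSG00000020644) was measured at 199, 182 and 212 CPM at E10.5, 282, 256 and 274 CPM at E11.5 and 237, 226 and 303 CPM at E12.5. Every E11.5 and E12.5 library was above every E10.5 library, and E11.5 and E12.5 overlapped. Id2 rose 1.37-fold in the first interval, a log2 fold change of 0.46 ± 0.10 (SE; adjusted p = 0.028), under the fold threshold. The adjusted p was 4.13e-05 without E10.5 replicate 3 and between 0.075 and 0.14 without any other single library. In the second interval the log2 fold change was -0.09 ± 0.14 (SE; adjusted p = 0.698).

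Id4 (chr13:48261228-48266026, plus strand; ENSMUSG00000021379) was measured at 50.7, 44.9 and 81.9 CPM at E10.5, 29.6, 28.6 and 31.4 CPM at E11.5 and 46.1, 48.7 and 55.9 CPM at E12.5. Every E11.5 library lay below every other library, E10.5 replicate 3 was the highest, and E10.5 and E12.5 overlapped. Id4 fell in the first interval by 0.98 ± 0.22 on the log2 scale (SE; adjusted p = 0.028) and rose again in the second by 0.74 ± 0.13 (SE; adjusted p = 0.00432), both under the fold threshold. Without E10.5 replicate 3 the fall was smaller and its test stronger, at a log2 fold change of -0.67 (adjusted p = 3.96e-05), and the log2 fold change over the whole course turned from -0.23 (adjusted p = 0.518) to 0.08 (adjusted p = 0.735). The first fall missed the threshold without any of the 3 E11.5 libraries in turn (adjusted p = 0.133, 0.11 and 0.108). Markers of forebrain and eye moved with it in the first interval but not in the second, with summed levels of 186 to 259 CPM in the E10.5 libraries, highest in replicate 3, 53.5 to 58.5 CPM in those of E11.5 and 45.9 to 61.8 CPM in those of E12.5, with 6 of 6 detected in some library and none at 0 throughout. Their part in the Id4 result was not tested. The antisense transcripts A330033J07Rik and Gm49291 share 4.4% of the Id4 exon sequence.

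The summed level of the 4 Id genes was 326 ± 43.2, 386 ± 16.9 and 448 ± 90.1 CPM per kb (SD, n = 3) in the order of the stages, with ranges of 277 to 361, 368 to 402 and 348 to 524. The lowest library at E12.5 was thus inside the E10.5 range. Id3 supplied 43.8% ± 6.42, 43.7% ± 0.409 and 47.2% ± 1.43 of this sum in the same order (SD, n = 3), Id1 26.0% ± 1.49, 25.5% ± 2.03 and 26.2% ± 2.08, and Id2 25.3% ± 5.17, 28.8% ± 2.30 and 23.6% ± 2.94. The share of Id4 was 3.65%, 3.44% and 7.67% in the E10.5 libraries, 2.09%, 1.91% and 2.03% at E11.5 and 2.55%, 3.63% and 2.77% at E12.5. All E11.5 libraries held a smaller Id4 share than the others. No test of the shares was run, and between any pair of stages, 3 against 3 libraries, an exact permutation p could not go below 0.1. At E10.5 replicate 3 differed from the other 2 in its make-up, with Id3 at 36.4% against 48.0% and 46.9%.

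Smad6 and Smad7 encode the inhibitory Smads, which occupy activated receptors and bring ubiquitin ligases to them, Smad6 acting mostly on BMP and Smad7 on both BMP and TGF-beta receptors. Smad6 (chr9:63953076-64022059, minus strand; ENSMUSG00000036867) was measured at 43.0, 40.8 and 21.3 CPM at E10.5, 39.7, 40.3 and 42.7 CPM at E11.5 and 57.0, 47.2 and 47.8 CPM at E12.5. Smad7 (chr18:75367529-75395935, plus strand; ENSMUSG00000025880) was measured at 46.7, 55.1 and 22.9 CPM at E10.5, 57.2, 61.2 and 59.0 CPM at E11.5 and 73.5, 59.8 and 53.0 CPM at E12.5. E10.5 replicate 3 was the lowest of all 9 libraries for both. Every E12.5 library of Smad6 lay above every earlier library, and the E12.5 libraries of Smad7 overlapped both earlier stages. The log2 fold change of Smad6 was 0.23 ± 0.24, 0.30 ± 0.13 and 0.54 ± 0.25 (SE) for the first interval, the second interval and the whole course (adjusted p = 0.586, 0.135 and 0.144). For Smad7 it was 0.51 ± 0.28, 0.06 ± 0.14 and 0.59 ± 0.29 (SE; adjusted p = 0.273, 0.787 and 0.161). Without E10.5 replicate 3 the change in the first interval was -0.03 for Smad6 (adjusted p = 0.812) and 0.22 for Smad7 (adjusted p = 0.0504), and with the GC trend of each library removed as well it was 0.23 (adjusted p = 0.036) and 0.38 (adjusted p = 0.00216). Over the whole course the changes without that library were 0.29 (adjusted p = 0.21) for Smad6 and 0.30 (adjusted p = 0.245) for Smad7. Smad6 passed with the GC trend removed from all libraries, at 0.45 (adjusted p = 0.0449), and Smad7 with the replicate number as a block, at 0.66 (adjusted p = 0.0443), or with every gene of at least 1 count tested, at 0.61 (adjusted p = 0.035). Endothelial markers, all 6 detected, were also low in that library, at a summed 108 CPM against 277 at most in the same stage and 225 to 294 in later ones, and their part in the Smad6 and Smad7 levels was not tested.

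**Figure D4:**
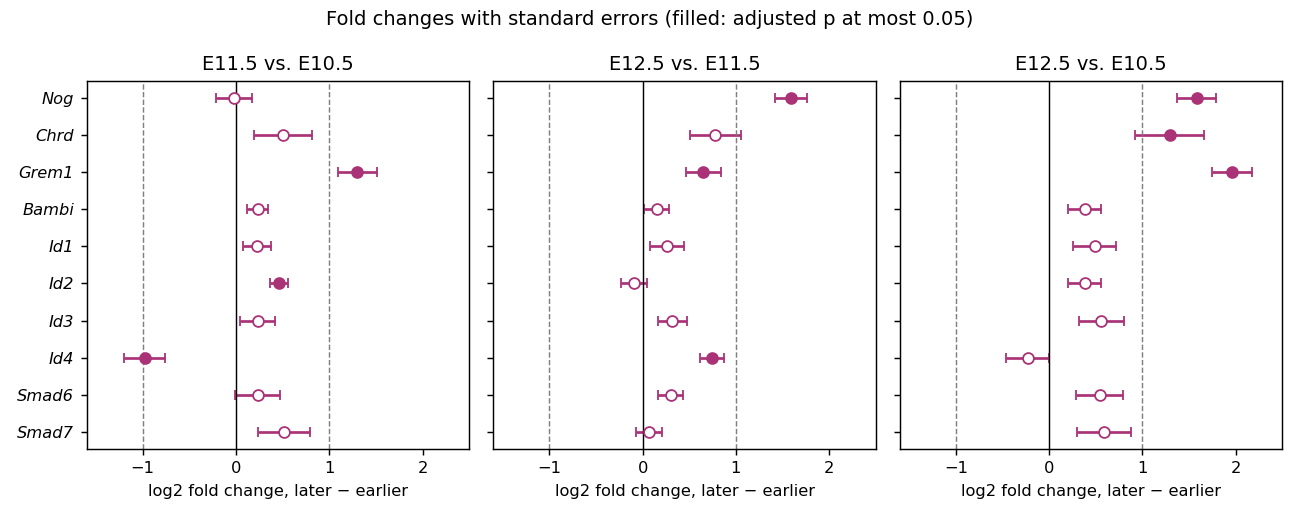
The x axis is the log2 fold change, later over earlier, in 3 panels, 1 per comparison, with standard errors as bars and dashed lines at the fold threshold of 1. Filled points pass the adjusted p of 0.05: Grem1, Id2 and Id4 in the left panel, Nog, Grem1 and Id4 in the middle, and Nog, Chrd and Grem1 on the right.

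In a single fit over the 9 libraries, 4 of the 10 genes differed among the stages at the same adjusted p, against 28.1% of all genes tested. They were Nog (adjusted p = 3.15e-05), Grem1 (8.5e-05), Id4 (0.00846) and Chrd (0.0277). The other 6 had adjusted p of 0.0658 for Id2, 0.142 for Bambi and Id3, 0.181 for Smad6, 0.183 for Smad7 and 0.19 for Id1. With the GC trend of each library removed, 8 of 10 passed, and 4 passed when E10.5 replicate 3 was left out as well. The share of all genes that passed was not counted under these settings. Removing the GC trend also lowered the common biological coefficient of variation over all genes from 0.186 to 0.161. The count of 8 therefore has no background to be read against. The change from E11.5 to E12.5 differed from that between E10.5 and E11.5 for 2 genes, against 1.20% of all genes tested: Nog, by 1.62 ± 0.33 on the log2 scale (SE; adjusted p = 0.036), and Id4, by 1.73 ± 0.36 (SE; adjusted p = 0.0413). Both calls are close to the threshold, with adjusted p as high as 0.196 for Nog and 0.237 for Id4 when single libraries were left out. For Grem1, whose larger step was the first, the difference was -0.65 ± 0.34 (SE; adjusted p = 0.502), and no difference between intervals was established.

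Of 54 other genes of the pathway, 11 were DEGs in the first interval (9 upregulated), 8 in the second (5 upregulated) and 20 over the whole course (16 upregulated), of 48, 48 and 49 tested. Of all genes tested, 6.0%, 5.11% and 15.0% were called in these comparisons. The lists were chosen with earlier results of these data known. Their median log2 fold change over the whole course was 0.61, beside 0.55 for the 10 genes and -0.0063 for all genes tested. Of the ligand genes, 5 of 9 were upregulated over the whole course, against 9.94% of all genes. By the adjusted p alone 9 of 9 passed, 8 of them higher, against 24.3% of all genes. Bmp2, a ligand that gremlin and noggin bind, was measured at 3.51, 2.09 and 1.86 CPM at E10.5, 7.96, 5.29 and 9.80 CPM at E11.5 and 23.6, 25.8 and 22.5 CPM at E12.5. The stages of Bmp2 did not overlap, and it rose by log2 fold changes of 1.63 ± 0.33 (SE; adjusted p = 0.0188) and 1.64 ± 0.21 (SE; adjusted p = 0.000655) in the 2 intervals, the first of which missed the threshold without E10.5 replicate 2, E11.5 replicate 1 or E11.5 replicate 3 (adjusted p = 0.068, 0.0936 and 0.0919). Bmp3 and Bmp6 rose in the second interval by 2.59 ± 0.25 (SE; adjusted p = 0.000182) and 2.34 ± 0.22 (SE; adjusted p = 0.000166). Bmp4 and Bmp7, the ligand genes most used as landmarks of the facial epithelium, passed the adjusted p over the whole course below the fold threshold, at 0.90 ± 0.19 (SE; adjusted p = 0.00634) and 0.75 ± 0.20 (SE; adjusted p = 0.0202). Gdf6 ran the other way in the second interval, at -1.19 ± 0.14 (SE; adjusted p = 0.000437). Gdf7 was at 0.238, 0.116 and 0 CPM at E10.5 and 1.78 to 4.79 CPM at E11.5, a difference from almost no counts (adjusted p = 0.00605).

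Among 17 other secreted modulators, 9 of 14 tested were DEGs over the whole course, 7 of them upregulated, against 15.0% of all genes called and 9.94% upregulated. Fst, which encodes follistatin, a binder of activin and some BMPs, was measured at 4.99, 2.32 and 3.53 CPM at E10.5, 13.3, 12.6 and 14.9 CPM at E11.5 and 24.8, 27.8 and 30.8 CPM at E12.5. The stages of Fst did not overlap, and over the whole course it rose by 2.95 ± 0.28 on the log2 scale (SE; adjusted p = 4.05e-05). Chrdl1 and Vwc2 fell in the first interval and over the whole course. Chrdl1, a chordin-like gene, fell by 1.89 ± 0.41 (SE; adjusted p = 0.0257) in the first interval and Vwc2, which encodes a secreted BMP antagonist of the nervous system, by 3.97 ± 0.56 (SE; adjusted p = 0.00537). Leaving out any E11.5 library ended the first call of Chrdl1 (adjusted p = 0.0891, 0.107 and 0.117). Chrdl1 was at 6.0, 5.22 and 13.7 CPM at E10.5, and without E10.5 replicate 3 its whole-course change was -0.79 (adjusted p = 0.0484), compared with -1.37 with it, and that call was also lost without E12.5 replicate 1 or 3 (adjusted p = 0.0875 and 0.105). Tll1, which encodes a tolloid protease that cleaves chordin, rose by 2.5 ± 0.38 in the first interval (SE; adjusted p = 0.00678), and was at the edge of the threshold without E11.5 replicate 1 (adjusted p = 0.05).

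Among 6 BMP receptor genes, Acvr2b and Bmpr1b were downregulated in the second interval and fell by 1.20 ± 0.26 (SE; adjusted p = 0.0138) and 1.05 ± 0.14 (SE; adjusted p = 0.000962), and both were also downregulated over the whole course. Acvr2b missed the p threshold without E12.5 replicate 1 (adjusted p = 0.0969), and the change of Bmpr1b was -1.0 without that library, and its whole-course change was -0.99 without E10.5 replicate 3, under the fold threshold. Of the Smads that carry the signal, Smad9 was the DEG, at 6.24, 7.02 and 6.63 CPM at E10.5 and 19.6, 13.2 and 15.2 CPM at E11.5, which gave 1.27 ± 0.19 on the log2 scale (SE; adjusted p = 0.00605). Msx1 and Msx2 are homeobox genes that respond to BMP in the facial prominences. Msx1 rose by 1.16 ± 0.19 in the first interval (SE; adjusted p = 0.00887), with libraries at 289, 246 and 171 CPM and then 519, 477 and 572 CPM, and at 0.97 it was under the fold threshold without E10.5 replicate 3. Without E11.5 replicate 1 or 3 it missed the p threshold (adjusted p = 0.0581 and 0.0516). Msx2 fell in the second interval by 0.59 ± 0.12 (SE; adjusted p = 0.0118), under the fold threshold, from 70.2, 80.4 and 74.3 CPM to 54.9, 45.9 and 49.0 CPM. Tcf4, which encodes an E protein that Id proteins bind, rose by 1.01 ± 0.18 over the whole course (SE; adjusted p = 0.00222), at the edge of the fold threshold and under it without E10.5 replicate 1 or 2 or E12.5 replicate 2 (0.88 to 1.0). None of the 5 Smad ubiquitin ligase and corepressor genes was a DEG in any comparison by edgeR's quasi-likelihood test. By the adjusted p alone 1 passed in the first interval, against 11.5% of all genes. An unadjusted p under 0.05 was reached by 1, 2 and 2 of them in the first interval, the second interval and the whole course.

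**Figure D5:**
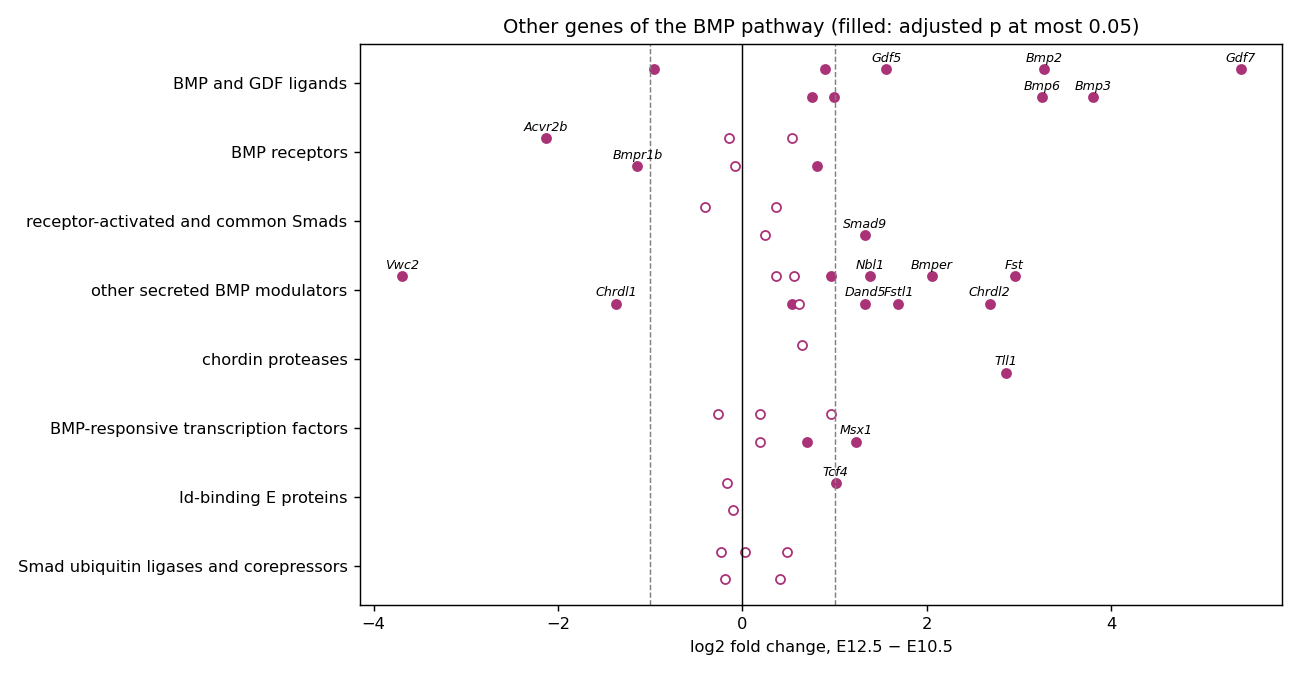
The x axis is the log2 fold change from E10.5 to E12.5 of 48 tested genes of the pathway other than the 10, the rows are the lists, and filled points pass the adjusted p of 0.05. Gdf7 at 5.4, from almost no counts at E10.5, lies furthest to the right. Bmp3 at 3.8, Bmp2 at 3.27, Bmp6 at 3.25 and Fst at 2.95 follow. Vwc2 at -3.69 and Acvr2b at -2.13 lie far to the left.

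Genes whose log2 CPM ran most like each of the 10 were sought over the 9 libraries among 16375 genes. For Nog these were Gm11541 (Pearson's r 0.989) and Chadl (0.988), for Grem1 Zeb2 (0.993) and Mdga2 (0.992), for Chrd C77080 (0.981) and Sdk2 (0.98), and for Bambi Pgrmc1 (0.975) and Fbxl4 (0.973). For the Id genes they were Tmsb10 (0.989) and Ndufa8 (0.971) for Id1, Me1 (0.968) and Gm12191 (0.952) for Id2, Tmem134 (0.989) and Upf3a (0.987) for Id3, and Krt7 (0.963) and Ntn4 (0.962) for Id4. For Smad6 they were Fam171a2 (0.992) and Usp21 (0.991), and for Smad7 Dysf (0.988) and Itga5 (0.985). The 9 points of each pair share stage, depth and the GC trend of E10.5 replicate 3. The 2 genes most like Smad6 had a GC content of 66.8% and 57.8% and those most like Bambi 44.9% and 44.5%. Likeness did not go with GC content for every gene. Those most like Id4, itself at 42.6%, had 52.3% and 51.1%, and those most like Nog, at 56.2%, had 45.3% and 55.9%. Between the 10 genes themselves, r was highest for Id1 and Id3 (0.95) and for Smad6 and Smad7 (0.93).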

How the data were processed

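Lambdoidal junction tissue of 9 pools of mouse embryos was sequenced by the authors, who used HISAT2 2.0.5 on GRCm38/mm10 and then featureCounts. The deposited table holds their raw counts per gene and library, used here without change, and gene length in bases. Its 9 FPKM columns and the authors' own fold changes and p-values were not used. Whether reads were counted by strand, and how reads with several positions were treated, is not given in the sources used here. Libraries held 16581009 to 20836804 counts, and PCR reads without molecular identifiers are not independent molecules. A count is therefore not a number of independent molecules. The standard errors and p-values rest on the dispersion between libraries estimated in the fits, not on counting error alone.

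For every pair of stages the 6 libraries were fitted in R 4.3.3 with edgeR 4.0.16 (filterByExpr, TMM, robust quasi-likelihood test) over all genes, with Benjamini-Hochberg adjustment. DEGs met an adjusted p of 0.05 or lower together with a log2 fold change of 1 or more in size. The 9-library fit tested any difference among stages and the difference between the 2 intervals. Levels are CPM on TMM-scaled sizes, between genes per kb. Standard errors are the log2 fold change over the square root of the F statistic. Alternatives were other normalizations, DESeq2 1.42.0, other filters, a replicate block, removal of each library's GC trend, hemoglobin genes left out and each library left out. Removing the GC trend together with E10.5 replicate 3 was chosen after seeing the data. The fit was tested on simulated data.

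The 10 genes, the lists and the tests were chosen with earlier results of these data known. All 10 are named, and of the other lists the called genes with the smallest p (at most 2 per direction, list and comparison) plus Bmp2, Bmp4, Bmp7, Msx1, Msx2 and Fst. Of the genes this rule names, 1 is included in the counts but not reported here by name. For each gene, the 2 most correlated genes are named. GC content and exon overlap are from GENCODE vM21, in which 54409 of the 54532 genes were found. Bambi has other coordinates there. Promoter sequences are from RefSeq. Summaries used pandas 2.3.3 and scipy 1.17.1, and plots matplotlib 3.10.9, under Python 3.11.15.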

Additional observations from a re-analysis of the deposited data

Results flagged for a closer look

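The change of Nog between E11.5 and E12.5 was larger than that between E10.5 and E11.5 by 1.62 on the log2 scale (edgeR's quasi-likelihood test of the difference, adjusted p = 0.036): its libraries lay at 5.0 to 6.73 CPM at the first 2 stages and at 15.7 to 19.1 CPM at E12.5. The direction was the same without each single library, at 1.41 to 1.83.

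For Id4 the same difference was 1.73 (adjusted p = 0.0413), since the gene fell in the first interval and rose in the second, with all 3 E11.5 libraries, at 28.6 to 31.4 CPM, below the other 6. Leaving out each library in turn gave 1.38 to 1.91, with an adjusted p of up to 0.237. As for Nog, the call ended without any E11.5 library in turn, or without E12.5 replicate 1 or 3.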

How the results depend on the processing

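The 10 genes in 3 comparisons gave 500 fold changes under alternatives. By the adjusted p alone, 450 of these kept their direction and side of the threshold, 21 fell behind it and 20 passed it. The other 9 changed sign, 0 of them past the threshold. Without the fold threshold, 3 genes were called in each interval, and of the other pathway genes 19 in the first and 14 in the second. Of all genes tested, 11.5% and 12.1% passed in these intervals. Leaving out each library in turn gave 0 to 2 genes called in the first interval (0 without E11.5 replicate 1 or 3, 2 without E10.5 replicate 1 or 2), 1 to 2 in the second and 2 to 3 over the whole course. Of the other pathway genes it gave 5 to 14 in the first interval, the lowest being 5 and 6 without E11.5 replicate 1 or 3. For the difference between intervals it gave 0 to 2 genes, with 0 when any E11.5 library or E12.5 replicate 1 or 3 was missing. Removing the GC trend raised the genes that differed among stages from 4 to 8, with no count over all genes for that setting. Shares of the Id sum from counts not divided by length, in the order of the stages, were 16%, 15.9% and 16.6% for Id1, 32.5%, 37.8% and 31.3% for Id2 and 9.88%, 4.17% and 6.22% for Id4, and 42.1% for Id3 at E11.5, since longer genes then weigh more. In the first interval, Nog ranged from -0.12 to 0.095 when a library was left out (0.0016 without E10.5 replicate 3, and 0.15 with the GC trend also removed), and Smad6 from -0.029 to 0.40. Over the whole course, Id4 ranged from -0.40 to 0.084 in this way and was 0.014 without the GC trend and E10.5 replicate 3. In the second interval, Smad7 ranged from -0.07 to 0.16 (-0.032 with the GC trend removed), Bmp7 from -0.011 to 0.25 and Msx1 from -0.14 to 0.16 (-0.069 with the GC trend removed, -0.013 without E11.5 replicate 2). The causes were not tested.

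Same-numbered libraries of different stages had correlations of -0.151 to 0.22 between their deviations from the stage means. Not every library correlated best with its own number, and a pair with different numbers reached 0.223. Whether same-numbered libraries shared any handling cannot be told from these values, and the main fits left the number out. With the replicate number as a block, 1, 1 and 3 of the 10 genes were called in the first interval, the second interval and the whole course, as without it, and 11, 8 and 21 of the other pathway genes. Under the block the adjusted p of Id2 in the first interval was 0.0764 and that of Smad7 over the whole course 0.0443. With block and GC trend removal together, the second interval gave -0.039 for Smad7 and -0.078 for Msx1. Depth limited Chrd most, with 26 to 144 counts per library.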
